A study of Mus musculus with 9 samples.

Results

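Iron handling genes were examined in dendritic cells (DCs) as a set of 10 genes: *Hamp*, *Slc40a1*, *Tfrc*, *Slc11a1*, *Slc11a2*, *Steap4*, *Lcn2*, *Fth1*, *Ftl1* and *Hmox1*. They were picked by gene symbol, partly on measured values, because *Hamp* had moved in opposite directions under the 2 stimuli of the study. All 10 were found among the 55471 genes counted. Of the 10, 9 had enough counts to pass edgeR's expression filter, and *Steap4* did not. *Hamp* passed it only through the LPS group, so its values are given as a description, with no test.

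The cells were wild-type DCs grown from the bone marrow of C57BL/6 mice in the presence of GM-CSF, the growth factor that drives this culture. The 3 groups were left unstimulated, activated with LPS (100 ng/mL), a bacterial membrane component sensed by a Toll-like receptor, or treated with IFN-β (1000 U/mL), a type I interferon, and all were taken at 6 h. Each group had 3 libraries, lettered A, B and C. The labels do not say whether libraries of a group came from separate mice or cultures, so p-values measure the spread between these libraries, which may be technical. The methods give female adult mice, and GM-CSF cultures are known to hold macrophage-like as well as DC-like cells.

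Iron enters most cells bound to transferrin through the transferrin receptor, leaves endosomes through a divalent metal transporter, and is stored in ferritin, a shell built of heavy and light chains. It leaves the cell only through ferroportin, the protein that the hormone hepcidin binds and sends for degradation. Hepcidin is made mainly in the liver, where BMP signals and the cytokine IL-6, acting through STAT3, are known to raise it, and myeloid cells can make small amounts. Iron regulatory proteins tune several of these transcripts by binding a hairpin, the iron-responsive element: in a 5′ UTR it holds back translation, and in a 3′ UTR it protects the transcript from decay.

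Matches to the iron-responsive element in the set are shown because they fall in storage, export and uptake genes whose counts are given next. They were found in GENCODE M21 transcripts (GRCm38) as a C followed by 5 bases, the loop CAGTGH or CAGAGH (H is A, C or T), and 5 bases that pair with the earlier 5. G to U was counted as a pair, and no mismatch or bulge was allowed in these pairs. Capitals mark the 6-base loop.

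Fth1, 5′ UTR, chr19:9982738-9982754 (+): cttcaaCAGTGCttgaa
Ftl1, 5′ UTR, chr7:45459785-45459801 (-): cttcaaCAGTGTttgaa
Slc40a1, 5′ UTR, chr1:45925471-45925487 (-): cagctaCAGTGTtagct
Tfrc, 3′ UTR, chr16:32631166-32631182 (+): cagtgaCAGAGTtcact
Tfrc, 3′ UTR, chr16:32631225-32631241 (+): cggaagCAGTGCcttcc
Tfrc, 3′ UTR, chr16:32631604-32631620 (+): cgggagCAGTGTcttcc
Tfrc, 3′ UTR, chr16:32631669-32631685 (+): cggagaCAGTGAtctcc
Tfrc, 3′ UTR, chr16:32631716-32631732 (+): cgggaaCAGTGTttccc

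*Tfrc* held 5 such elements in its 3′ UTR, and *Fth1*, *Ftl1* and *Slc40a1* held 1 each in the 5′ UTR. Of 21899 genes searched, 0.215% had a match in the 5′ UTR and 0.854% in the 3′ UTR. A match is a description of these letters and not a tested site. Elements of another shape would be missed, so the lack of a match in *Slc11a2* or another gene of the set does not mean that it has none.

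A total of 33425803 to 43735199 counts per library were assigned to genes, so that 3 counts, taken as the smallest number the depth can show, corresponded to 0.0674 to 0.106 CPM (the counts-per-million unit) in a library. The library sizes used for CPM were scaled with TMM factors, which correct for differences in composition. Intervals and floors cover counting error only. The 8 DC markers, among them *Itgax* and *Cd74*, summed to 4430 to 5290 CPM in unstimulated, 6200 to 6800 CPM in LPS-activated and 4940 to 5240 CPM in IFN-β-treated DCs. The 8 macrophage markers, among them *Csf1r* and *Adgre1*, summed to 2010 to 2650, 2180 to 2940 and 2850 to 3300 CPM. All 16 of these markers were above the floor in every library. Under LPS, 5 of the DC markers rose and 1 fell, and 4 of the macrophage markers rose and 2 fell, where 68.2% of all genes tested were called. IFN-β raised 1 DC marker and 3 macrophage markers, where 46.9% of all genes were called. The erythroid, mast cell or basophil, B cell and T or NK cell markers summed to at most 0.531 CPM in any library. In bulk RNA, fewer cells of a type and less RNA per cell cannot be told apart. The part of cell makeup in the results on the 10 genes was not tested.

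*Hamp* encodes hepcidin and lies at chr7:30942368-30944032 on the minus strand, with no annotated gene overlapping its exons. It had 6, 7 and 8 counts in unstimulated replicates A, B and C. LPS-activated DCs had 79, 113 and 68 counts, and IFN-β-treated DCs had 2, 3 and 1. These correspond to 0.163 ± 0.0152 CPM (SD, n = 3) without stimulus, 2.73 ± 0.605 CPM with LPS and 0.0514 ± 0.0263 CPM with IFN-β. The 3 groups did not overlap, and every IFN-β library was at or under the floor of 3 counts. Summed over libraries and scaled by library size, LPS gave 16.7 times the unstimulated level (95% exact counting interval 10.7 to 27.4, from 260 against 21 counts). For IFN-β the ratio was 0.315 (0.104 to 0.806, from 6 against 21 counts). The fitted log2 fold changes were 4.03 under LPS and -1.61 under IFN-β, and the latter depends on the prior count used in the fit. The opposite directions are what the gene was chosen for and support nothing further. Even with LPS the hepcidin transcript stayed under 5 CPM in every library.

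*Hamp2*, the neighbouring mouse paralog at chr7:30922372-30924681, gives a comparison from the same chromosome. It had 2, 7 and 2 counts without stimulus, 2, 1 and 0 with LPS and 2, 2 and 1 with IFN-β. Its groups overlapped and it did not pass the filter. The ratio of LPS to unstimulated counts was 0.368, with a counting interval of 0.0659 to 1.39 that includes equality. No test of *Hamp2* against *Hamp* was made. No stretch of 100 bases was shared between the *Hamp* transcript and any other annotated transcript, *Hamp2* included. Of the *Hamp2* exons, 89 bases overlap a non-coding gene on the other strand.

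The promoters of both genes are shown because they are near copies while the counts of the genes lay apart in the LPS group. Without stimulus and with IFN-β the counts of the genes overlapped. Whether differences between the promoters bear on the counts was not tested. The stretch runs from 130 to 6 bases before the annotated *Hamp* start, at chr7:30944035-30944159 on the minus strand, and the aligned *Hamp2* stretch is chr7:30924184-30924308, also on the minus strand (RefSeq, GRCm38.p6). Capitals mark, in order, a BMP-responsive element (GGCGCC), a STAT element (TTCNNNGAA) and an AP-1 element (TGANTCA).

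Hamp: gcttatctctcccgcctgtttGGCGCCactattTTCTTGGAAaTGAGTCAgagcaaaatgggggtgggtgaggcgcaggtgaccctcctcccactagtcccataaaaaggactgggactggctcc
Hamp2: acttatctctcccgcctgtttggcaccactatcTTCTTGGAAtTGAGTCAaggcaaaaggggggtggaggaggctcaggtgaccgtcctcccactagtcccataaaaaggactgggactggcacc

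The stretches were identical at 113 of 125 positions (90.4%). Of the 12 substitutions, 1 fell in a marked element. It is G25A, the *Hamp* base first, with positions counted from 1 at the 5′ end of the printed stretch, which leaves the STAT and AP-1 letters of *Hamp2* intact and the BMP-responsive letters changed. Over 32851 RefSeq promoter windows of equal length, read on both strands, 11.9% held GGCGCC, 8.3% the STAT element and 7.81% the AP-1 element. Windows were matched for 7 of the 10 genes. Among the others, the *Steap4* window held a STAT element and a κB-like element (GGNNTTTCC, in 5.82% of windows), and 1 *Tfrc* window held GGCGCC. The interferon-stimulated response core TTCNNTTTC (8.56% of windows), the antioxidant response core TGACNNNGC (12.4%) and the E-box CACGTG (7.15%) had no match in the windows of these genes. No match says only that these letters are not in this window.

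**Figure D1:**
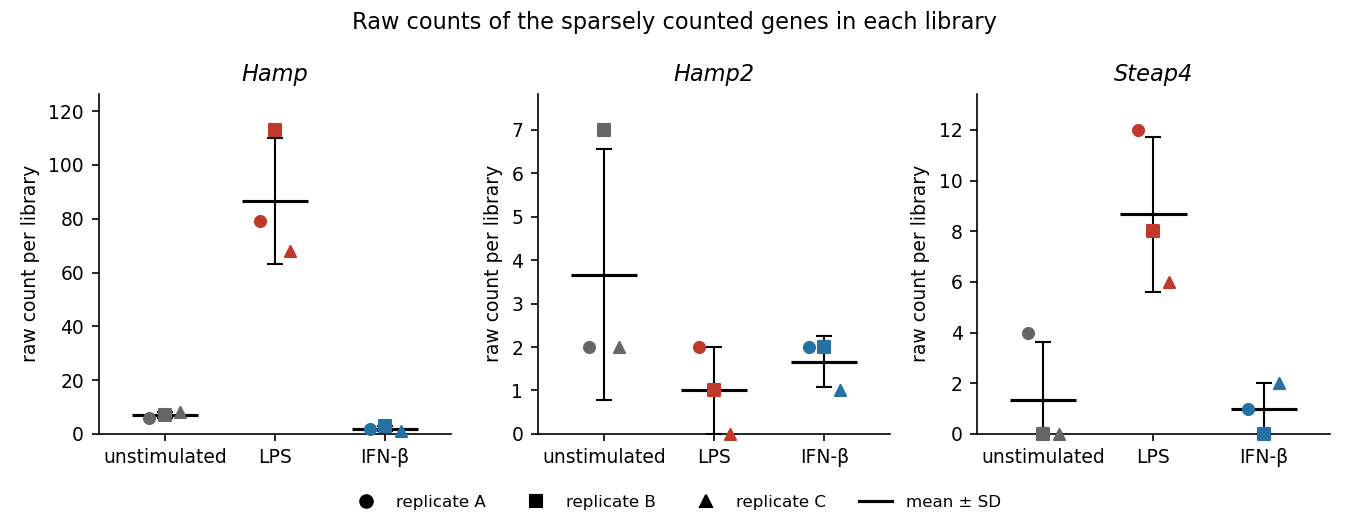
Raw counts per library (y axis) of Hamp, Hamp2 and Steap4 in the 3 groups (x axis), each panel on its own scale from 0, with 1 point per library and bars for the mean ± SD. Hamp lay at 68 to 113 counts in the LPS libraries and at or under 8 in all others, whereas Hamp2 stayed at or under 7 counts and Steap4 at or under 12.

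The 9 genes other than *Hamp* were then compared between groups. LPS raised 5 of the 8 tested (*Slc40a1*, *Slc11a2*, *Lcn2*, *Fth1* and *Hmox1*) and lowered 2 (*Tfrc* and *Ftl1*), leaving *Slc11a1* (edgeR quasi-likelihood test, Benjamini-Hochberg adjusted p under 0.05). Among all 16260 genes tested, 32.8% were called higher and 35.4% lower under LPS. The median log2 fold change of the 8 genes was 0.87, beside -0.04 over all genes. Scaling by library size only shifted the median of all genes by -0.58 under LPS, -0.31 under IFN-β and 0.27 for the difference of responses, and split the calls under LPS into 4 higher and 3 lower. DESeq2, which also tested *Steap4*, called 6 higher and 2 lower. IFN-β lowered 1 of the 8, *Tfrc*, and raised 0, where 23.6% of all genes were called higher and 23.3% lower. The number raised was also 0 at an unadjusted p under 0.05 and with DESeq2, but 2 with the replicate letter as a block. The median for the 8 was -0.01 on the log2 scale, beside -0.02 over all genes. At an unadjusted p under 0.05 the IFN-β comparison lowered *Slc40a1* as well. With the replicate letter as a block it called 4 genes, *Tfrc* and *Slc40a1* lower and *Lcn2* and *Hmox1* higher. Leaving out 1 library gave 2 calls under IFN-β without IFN-β replicate B, LPS replicate A or LPS replicate C, and 3 calls without unstimulated replicate A. In the direct comparison of the 2 responses, 5 of the 8 had a lower response to IFN-β than to LPS, against 23.3% of all genes, and 1 (*Ftl1*) a higher one, against 25.8%. Scaling by library size only gave 4 lower and 3 higher responses there. The comparisons with unstimulated DCs share the same 3 unstimulated libraries.

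**Figure D2:**
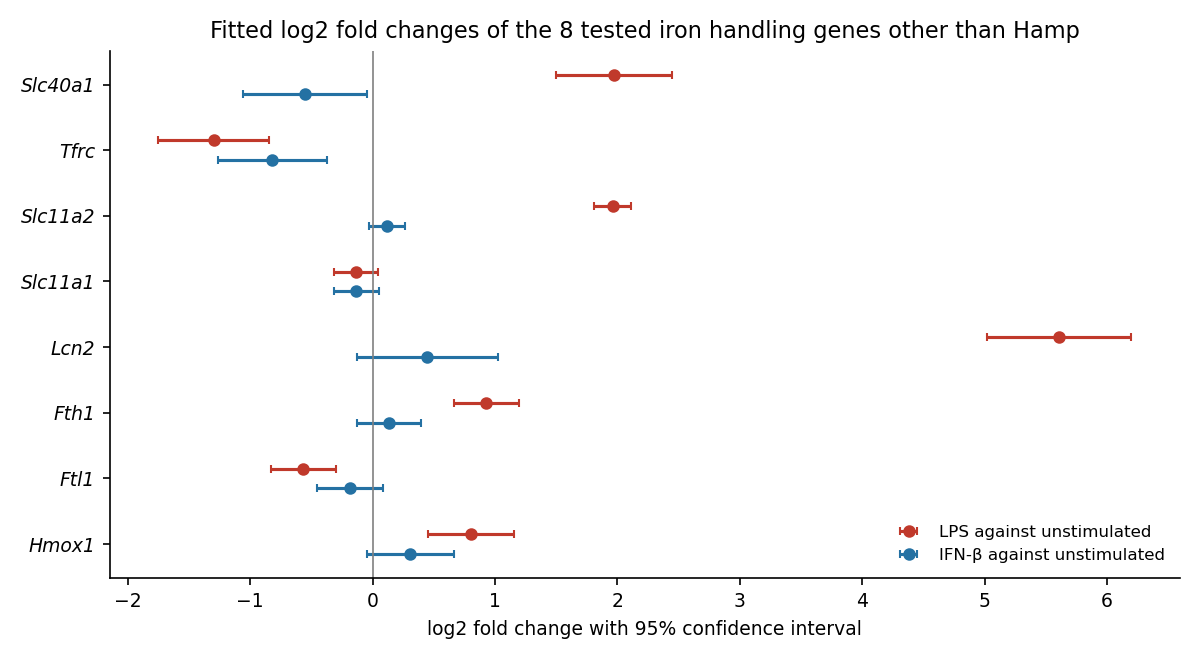
Fitted log2 fold changes (x axis) with 95% confidence intervals (not adjusted for the number of genes) of the 8 tested genes other than Hamp (y axis), under LPS (red) and IFN-β (blue), each against unstimulated DCs. The LPS values run from -1.30 for Tfrc to 5.61 for Lcn2, while those under IFN-β stay between -0.82 and 0.45.

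*Slc40a1* encodes ferroportin, the iron exporter and the target of hepcidin (chr1:45908068-45926523, minus strand). It stood at 3.32, 5.08 and 3.81 CPM in the 3 unstimulated libraries, in the order A, B and C. With LPS the values were 13.8, 17.1 and 17.2 CPM, and with IFN-β 1.85, 3.51 and 3.04 CPM. All LPS libraries lay above all others, while the other groups overlapped, with IFN-β replicate B above unstimulated replicate A. The gene rose 3.93-fold under LPS (log2 fold change 1.97 ± 0.21 SE, edgeR adjusted p = 1.11e-05). Under IFN-β the log2 fold change was -0.55 ± 0.23 (edgeR adjusted p = 0.0707), and with the replicate letter as a block it was -0.55 with an edgeR adjusted p of 0.0031. It also passed without IFN-β replicate B (-0.74, edgeR adjusted p = 0.0345) or unstimulated replicate A (-0.68, edgeR adjusted p = 0.0437). The response to IFN-β was 2.53 lower on the log2 scale than that to LPS (edgeR adjusted p = 6.3e-06). The exporter and the transcript of its hormone *Hamp* were thus both highest in the LPS group.

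*Tfrc*, the transferrin receptor (chr16:32608920-32632794, plus strand), was the gene of the set that fell under both stimuli. Unstimulated libraries A, B and C had 23.1, 30.3 and 36.9 CPM. LPS-activated DCs had 11.1, 9.96 and 15.7 CPM, and IFN-β-treated DCs had 13.9, 18.6 and 18.8 CPM. Both stimulated groups lay below every unstimulated library, and they overlapped each other. *Tfrc* fell by 1.30 ± 0.20 on the log2 scale with LPS (edgeR adjusted p = 2e-04). With IFN-β it fell by 0.82 ± 0.20 (edgeR adjusted p = 0.00651). The difference between the responses was 0.48 ± 0.21 (edgeR adjusted p = 0.0776), and 0.49 with an edgeR adjusted p of 0.00153 in the fit with the replicate letter as a block. Leaving out unstimulated replicate A (edgeR adjusted p = 0.0487), LPS replicate C (0.0192) or IFN-β replicate A (0.0436) also took this difference past the threshold.

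*Slc11a2*, the divalent metal transporter that carries iron across endosomal and plasma membranes (chr15:100387898-100425072, minus strand), had the smallest SE under LPS among the 8 tested genes. It went from 36.4, 37.2 and 40.3 CPM without stimulus to 157, 145 and 141 CPM with LPS, and stood at 42.2, 40.4 and 41.2 CPM with IFN-β. The LPS libraries were far from all others, and the IFN-β libraries lay just above the unstimulated ones. The rise with LPS was 3.89-fold (log2 fold change 1.96 ± 0.07, edgeR adjusted p = 4.77e-09). With IFN-β the log2 fold change was 0.12 ± 0.07 (edgeR adjusted p = 0.163), and it turned to -0.19 when libraries were scaled by size only. The gene shares 402 exon bases with *Gm5475* on the opposite strand, and the strand setting of the counting is not given in the sources used here. The response to IFN-β was 1.84 lower on the log2 scale than that to LPS (edgeR adjusted p = 2.12e-08).

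*Slc11a1*, the phagosomal metal transporter of myeloid cells (chr1:74375195-74386062, plus strand), had 112, 94.7 and 95.4 CPM in unstimulated DCs. The LPS libraries had 91.5, 90.3 and 93.8 CPM and the IFN-β libraries 99.99, 88.9 and 87.1 CPM. The LPS libraries lay just below the unstimulated ones, and the IFN-β libraries overlapped with them. The log2 fold change was -0.13 under each stimulus (95% interval -0.31 to 0.05 in both, edgeR adjusted p = 0.167 with LPS and 0.211 with IFN-β). With upper-quartile scaling both passed the threshold, at -0.22 and -0.21 (edgeR adjusted p = 0.0174 and 0.035), and with scaling by library size only at -0.71 and -0.44. Under LPS this interval did not meet that of the other SLC11 transporter, *Slc11a2*, at 1.81 to 2.11.

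*Lcn2* encodes lipocalin 2, a secreted protein that binds bacterial siderophores and so keeps iron from microbes (chr2:32384633-32388252, minus strand). Unstimulated libraries A, B and C held 5.12, 2.38 and 2.80 CPM. LPS-activated DCs held 186, 152 and 161 CPM, and IFN-β-treated DCs 5.29, 5.21 and 3.40 CPM. The LPS libraries stood apart from all others, and the remaining 2 groups overlapped. The gene rose 48.8-fold with LPS (log2 fold change 5.61 ± 0.26, edgeR adjusted p = 2.66e-08), the largest change among the 8 tested. With IFN-β the log2 fold change was 0.45 ± 0.26 (edgeR adjusted p = 0.186). It was 0.46 with an edgeR adjusted p of 0.0381 in the fit with the replicate letter as a block, and 0.84 (edgeR adjusted p = 0.00671) without unstimulated replicate A, whose level was the highest of its group. The response to IFN-β was 5.16 lower on the log2 scale than that to LPS (edgeR adjusted p = 1.18e-07).

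*Lcn2* is also a granule gene of neutrophils, so the 9 neutrophil markers were set beside it. They summed to 10.4 to 22.4 CPM in unstimulated, 13.0 to 24.8 CPM in LPS-activated and 9.77 to 18.3 CPM in IFN-β-treated DCs, and these ranges overlap. Of the 9, 5 were under 1 CPM in every library (*Elane*, *Mpo*, *Ly6g*, *Retnlg* and *Cxcr2*). Of the 5 markers tested, 1 rose (*Camp*) and 1 fell (*Cxcr2*) under LPS, where 68.2% of all genes tested were called. *Camp* reached at most 1.31 CPM with LPS. Whether neutrophils bear on the *Lcn2* counts was not tested.

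*Steap4*, a metalloreductase that is known to be induced in inflammation (chr5:7960457-7982213, plus strand), was near the floor. It had 4, 0 and 0 counts without stimulus, 12, 8 and 6 with LPS and 1, 0 and 2 with IFN-β. The LPS libraries lay above all others. The ratio of summed counts for LPS over unstimulated was 8.77, with a counting interval of 3.04 to 34.6 (26 against 4 counts). The gene failed edgeR's expression filter, so the main test holds no value for it. DESeq2, which tested it, called it higher with LPS (log2 fold change 3.14 ± 1.19, DESeq2 adjusted p = 0.0177), as did edgeR without the filter (2.99 ± 0.85, edgeR adjusted p = 0.00306).

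**Figure D3:**
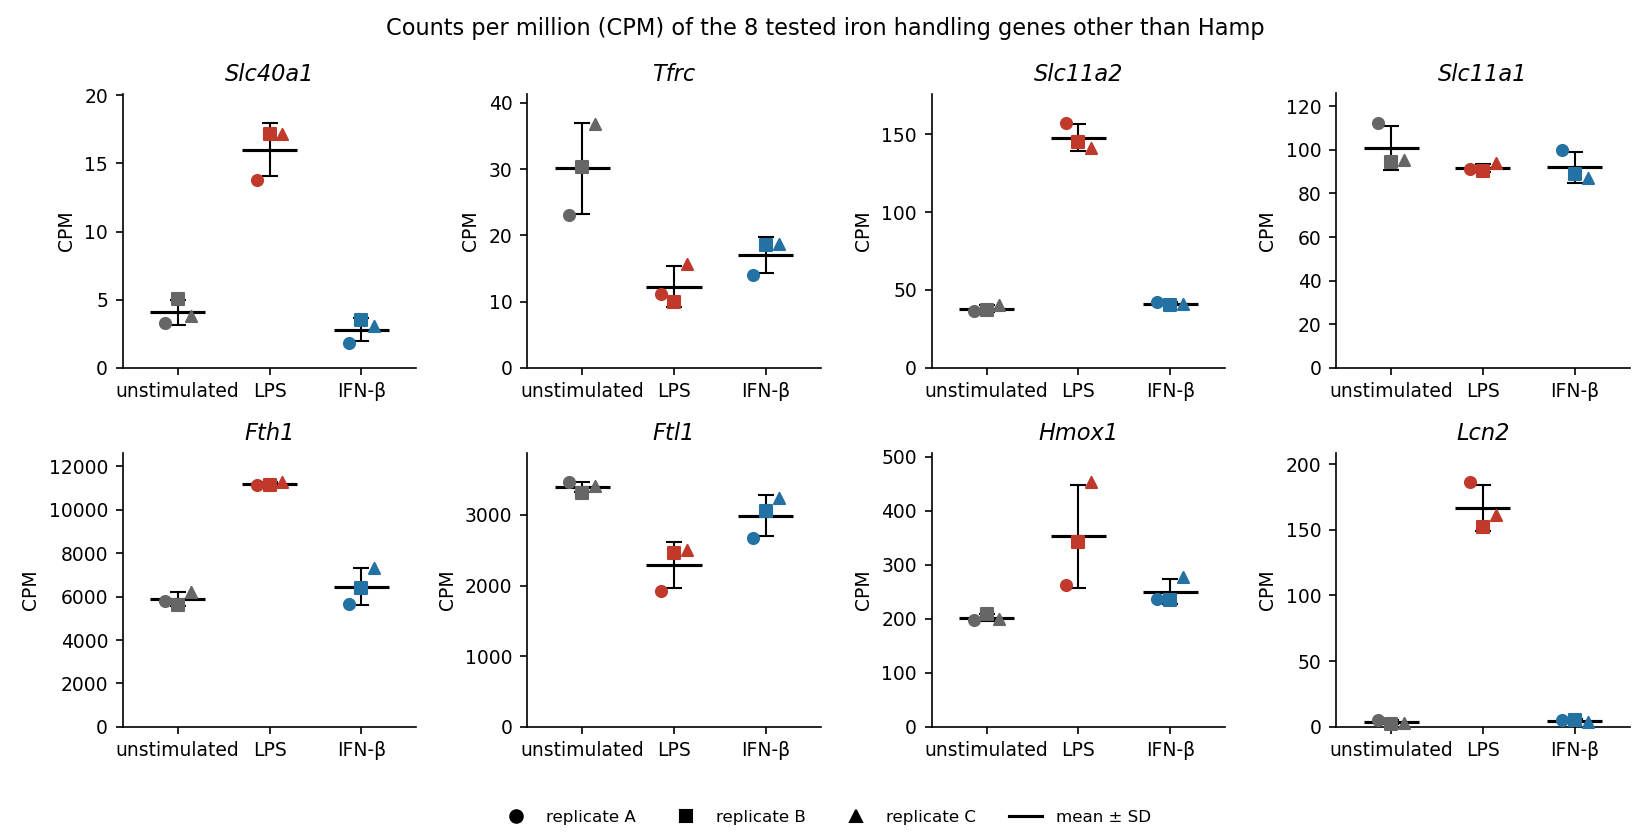
CPM per library (y axis, each panel from 0) of the 8 tested iron handling genes other than Hamp in the 3 groups (x axis), with 1 point per library and bars for the mean ± SD. Slc40a1, Slc11a2, Fth1 and Lcn2 are high in the 3 LPS libraries alone, Tfrc is low in both stimulated groups, and Slc11a1 lies between 87.1 and 112 CPM in every library.

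The ferritin chains moved in opposite directions under LPS. *Fth1*, the heavy chain with ferroxidase activity (chr19:9980598-9985098, plus strand), stood at 5782, 5613 and 6232 CPM without stimulus. LPS-activated DCs had 11150, 11140 and 11280 CPM and IFN-β-treated DCs 5654, 6388 and 7335 CPM. The LPS values were tightly grouped above all others, and the remaining groups overlapped. *Fth1* rose 1.90-fold with LPS (log2 fold change 0.93 ± 0.12, edgeR adjusted p = 4.25e-05). The size of this rise depends on the scaling, as scaling by library size only shifted the median of all genes by -0.58 under LPS. The log2 fold change with IFN-β was 0.14 ± 0.12 (edgeR adjusted p = 0.375), or -0.17 with scaling by library size only, and the response to IFN-β was 0.79 lower on the log2 scale than that to LPS (edgeR adjusted p = 0.000281).

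*Ftl1*, the light chain that helps the iron core form (chr7:45457944-45459884, minus strand), had 3459, 3312 and 3401 CPM in unstimulated DCs. The LPS libraries had 1916, 2465 and 2496 CPM and the IFN-β libraries 2672, 3051 and 3237 CPM. The 3 groups did not overlap. The gene fell by 0.56 ± 0.12 on the log2 scale with LPS (edgeR adjusted p = 0.00169). With IFN-β the log2 fold change was -0.18 ± 0.12 (edgeR adjusted p = 0.241), and it passed at -0.49 (edgeR adjusted p = 0.0069) with scaling by library size only. The difference between the responses was 0.38 ± 0.12 (edgeR adjusted p = 0.023), and it did not pass without LPS replicate A (0.26, edgeR adjusted p = 0.082), IFN-β replicate B (0.37, edgeR adjusted p = 0.0652) or IFN-β replicate C (0.32, edgeR adjusted p = 0.0759).

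Ferritin genes have many processed copies. Of the *Ftl1* transcript, 78.6% of the 100-base stretches occurred in another annotated transcript, foremost *Ftl1-ps1*, against 0.573% for *Fth1*, so *Ftl1* counts are less certain. *Ftl1* exons also overlap *Gm22133* and *Gm10252*. The table held 15 further genes with symbols that begin with Fth or Ftl, of which 9, the *Fthl17* genes, had 0 counts in every library. *Ftl1-ps1* had 0.141% to 0.266% of the counts of *Ftl1*. It fell by 0.83 on the log2 scale with LPS (edgeR adjusted p = 0.00362), the direction of *Ftl1*. *Fth1-ps* had 0.0241% to 0.0364% of the counts of *Fth1* and rose by 0.77 (edgeR adjusted p = 0.00247), the direction of *Fth1*. *Fth-ps2* had at most 57 counts in a library, *Ftl1-ps2* at most 11, *Fth-ps3* at most 10 and *Ftl2-ps* at most 6.

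A ratio of 2 genes within a library does not depend on how the library is scaled. The ratio of *Fth1* to *Ftl1* counts was 1.67, 1.69 and 1.83 without stimulus, 5.82, 4.52 and 4.52 with LPS and 2.12, 2.09 and 2.27 with IFN-β. The groups did not overlap. It rose from 1.73 ± 0.0872 (SD, n = 3) to 4.95 ± 0.752 in LPS-activated DCs, a log2 difference of 1.51 ± 0.13 SE, and with IFN-β it was 2.16 ± 0.094, a log2 difference of 0.32 ± 0.05. The ratio of *Slc40a1* to *Tfrc* counts, exporter over importer, was 0.143, 0.168 and 0.103 without stimulus. It was 1.24, 1.72 and 1.09 with LPS and 0.133, 0.189 and 0.162 with IFN-β. The log2 difference was 3.29 ± 0.28 with LPS, a factor of 9.79, and 0.24 ± 0.25 with IFN-β, where the libraries overlapped. For the first 3 of these differences the two-sided exact permutation p was 0.1, the smallest that 3 libraries against 3 can give, and 0.133 after Benjamini-Hochberg adjustment over the 4 comparisons. For the last it was 0.5 (adjusted 0.5).

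**Figure D4:**
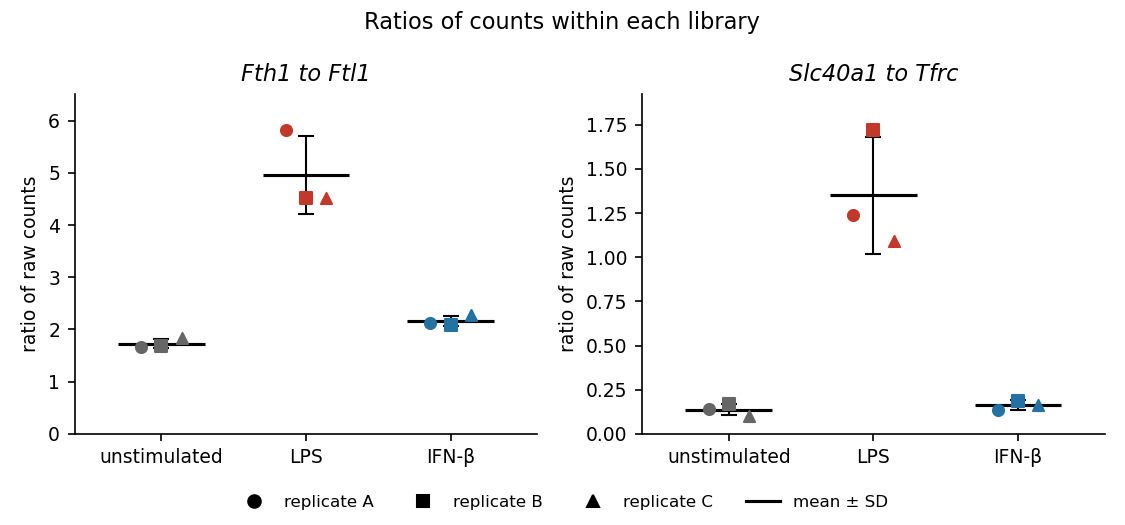
Ratios of raw counts within each library (y axis, from 0) for Fth1 to Ftl1 and for Slc40a1 to Tfrc in the 3 groups (x axis), with 1 point per library and bars for the mean ± SD. LPS libraries reach 4.52 to 5.82 and 1.09 to 1.72, above every other library in each panel.

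*Hmox1*, heme oxygenase 1, frees iron from heme (chr8:75093621-75100589, plus strand). Unstimulated libraries A, B and C had 198, 209 and 199 CPM. The LPS libraries had 263, 341 and 453 CPM, a wide spread, and the IFN-β libraries 237, 235 and 277 CPM. Both stimulated groups lay above every unstimulated library and overlapped each other. *Hmox1* rose 1.75-fold with LPS (log2 fold change 0.80 ± 0.16, edgeR adjusted p = 0.00103), but with scaling by library size only the log2 fold change was 0.23 (edgeR adjusted p = 0.237). With IFN-β it was 0.31 ± 0.16 (edgeR adjusted p = 0.138), and 0.30 with an edgeR adjusted p of 0.0302 with the replicate letter as a block. Without LPS replicate A or LPS replicate C, which are not compared here but enter the filter, the scaling and the estimate of spread, the IFN-β value of 0.30 also passed (edgeR adjusted p = 0.044 and 0.0405). The difference between the responses was -0.50 ± 0.16 (edgeR adjusted p = 0.0245). It did not pass with scaling by library size only (-0.23, edgeR adjusted p = 0.277) or without LPS replicate C (-0.28, edgeR adjusted p = 0.0803), IFN-β replicate A (-0.46, edgeR adjusted p = 0.0689) or IFN-β replicate B (-0.45, edgeR adjusted p = 0.0821).

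Levels were compared between genes per kilobase, once over all annotated exons and once over 1 annotated transcript per gene. By both, *Fth1* and *Ftl1* were far above the rest in every group, followed by *Hmox1*. Together *Fth1* and *Ftl1* took 0.813% to 1.22% of all counts of a library. The order of the 2 ferritin genes depended on the length used. In unstimulated DCs *Ftl1* led by exons (2531 ± 55.4 against 1694 ± 92.0 CPM per kilobase) and *Fth1* by transcript (3933 ± 214 against 3503 ± 76.5). In LPS-activated DCs *Fth1* led by both, with 3226 ± 22.0 against 1711 ± 243 by exons. In IFN-β-treated DCs the 2 genes overlapped by exons, and *Fth1* led by transcript. *Hamp* held rank 9 of 10 in unstimulated and IFN-β-treated DCs and rank 7 in LPS-activated DCs by both lengths, as a description. By transcript it then stood above *Slc40a1* and *Tfrc*, with 6.65 ± 1.47 against 4.75 ± 0.581 and 2.51 ± 0.626 CPM per kilobase. *Steap4* was lowest in every group. By exons, neighbours that overlapped were *Slc11a2* and *Tfrc* and also *Slc40a1* and *Hamp* without stimulus, and *Slc11a1* and *Slc11a2* and also *Tfrc* and *Slc40a1* with LPS. By transcript they were *Tfrc* and *Lcn2* without stimulus or with IFN-β, and *Hmox1* and *Lcn2* with LPS.

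The wider pathway was followed through 8 lists of iron and heme genes, the 9 genes above included and *Hamp* left out. Of 91 listed genes, 74 were tested. LPS changed 61 of the 74 (82.4%), 29 higher and 32 lower, beside 68.2% of all genes. IFN-β changed 39 (52.7%), 15 higher and 24 lower, beside 46.9% of all genes. The median log2 fold changes over the 74 were -0.09 and -0.09. With scaling by library size only the calls split into 17 higher and 46 lower with LPS and 8 higher and 43 lower with IFN-β. The responses to the 2 stimuli differed for 44 of the 74, or 59.5%, beside 49.1% of all genes, with 23 higher and 21 lower with IFN-β (34 and 15 with scaling by library size only). With the replicate letter as a block the calls were 21 higher and 29 lower under IFN-β and 28 and 25 for the difference. Splits under that scaling are given in brackets with the lists that follow, where the share of higher calls moved by over 10 percentage points. Each list count is to be read beside the shares of all genes tested. These were 32.8% higher and 35.4% lower with LPS, and 23.6% higher and 23.3% lower with IFN-β.

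Among the genes that control hepcidin, 9 of 17 tested rose and 7 fell with LPS (median log2 fold change 0.28), and 6 rose and 5 fell with IFN-β (median 0.25) [6 and 9 with LPS, 4 and 6 with IFN-β]. *Il6*, the cytokine that drives hepcidin in the liver, had 33 to 92 counts in unstimulated libraries and 42635 to 64888 with LPS. Its log2 fold change was 10.18 ± 0.38 with LPS and 1.81 ± 0.33 with IFN-β (edgeR adjusted p = 7.29e-09 and 0.00128). *Stat3*, which carries the IL-6 signal, rose by 1.73 ± 0.11 and 0.56 ± 0.11 on the log2 scale (edgeR adjusted p = 2.03e-07 and 0.00164). The *Il6* level was 1384 to 1993 CPM with LPS and 3.69 to 7.13 CPM with IFN-β. Whether *Il6* or *Stat3* bears on the *Hamp* counts was not tested. On the BMP side, the ligand gene *Bmp2* rose under each stimulus, by 3.22 ± 0.57 and 3.13 ± 0.57 on the log2 scale, from 2 to 9 counts to 17 to 54 with LPS and 34 to 52 with IFN-β (edgeR adjusted p = 0.000461 and 0.00112). Without unstimulated replicate A, which had 9 counts, the *Bmp2* values were 3.98 and 3.90. The BMP target *Id1* fell by 2.16 ± 0.29 and 1.20 ± 0.26 (edgeR adjusted p = 5.32e-05 and 0.00312). The inhibitory SMAD gene *Smad6* fell by 0.97 with LPS (edgeR adjusted p = 0.00333) and had a log2 fold change of -0.03 with IFN-β (edgeR adjusted p = 0.933). *Smad7*, the other inhibitory SMAD gene, rose by 0.63 and 0.45 (edgeR adjusted p = 0.000554 and 0.00841), though neither passed with scaling by library size only.

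Of 11 tested genes for iron uptake and reduction, 3 rose and 5 fell with LPS (median -0.30), and 0 rose and 4 fell with IFN-β (median -0.21). Also 0 of them rose with IFN-β at an unadjusted p under 0.05 or with DESeq2, and with the replicate letter as a block 1 rose and 6 fell. With scaling by library size only, 8 fell with IFN-β. *Slc39a14*, an importer of iron outside transferrin, was called in opposite directions. It had 33.5, 38.6 and 43.5 CPM without stimulus, 80.9, 77.2 and 64.6 CPM with LPS and 22.5, 28.1 and 27.3 CPM with IFN-β. The 3 groups did not overlap in these TMM-scaled values. It rose by 0.95 ± 0.12 with LPS and fell by 0.57 ± 0.12 with IFN-β on the log2 scale (edgeR adjusted p = 4.09e-05 and 0.00316), and the responses differed by -1.51 ± 0.12 (edgeR adjusted p = 3.48e-06). The gap between LPS and unstimulated libraries depends on the scaling. By library size only, LPS replicate C (2103 of 38727089 counts) lay below unstimulated replicate C (1927 of 35134316). *Cd163*, the scavenger receptor for hemoglobin bound to haptoglobin, fell under both stimuli from low levels, with 11, 16 and 37 counts in unstimulated libraries, 2, 2 and 0 with LPS and 4, 3 and 3 with IFN-β (edgeR adjusted p = 0.00111 and 0.00479). No fold is given for it, because the LPS libraries were at or under the floor.

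All 5 tested genes of iron storage changed with LPS, 4 higher and 1 lower (median 0.32), where 68.2% of all genes were called. With IFN-β 1 rose (median 0.08), where 46.9% of all genes were called [1 and 3 with LPS, 1 and 3 with IFN-β]. That gene was *Ncoa4*, the receptor that delivers ferritin for degradation, with log2 fold changes of 0.57 ± 0.12 with LPS and 0.86 ± 0.12 with IFN-β (edgeR adjusted p = 0.00147 and 0.000231). With scaling by library size only its LPS value was -0.01. In the export list 2 genes were tested and both rose with LPS (median 3.87), while 1 rose with IFN-β (median 1.09) [1 and 1 with IFN-β, as also with DESeq2 and with the replicate letter as a block]. Beside *Slc40a1* this was *Cp*, ceruloplasmin, the ferroxidase that works with ferroportin. *Cp* went from 2.20, 1.82 and 2.23 CPM to 143, 106 and 91.9 CPM with LPS and 13.8, 12.2 and 15.8 CPM with IFN-β, with no overlap between groups. Its log2 fold changes were 5.77 ± 0.20 and 2.74 ± 0.19 (edgeR adjusted p = 4.76e-09 and 2.51e-06).

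The iron regulatory proteins that bind the hairpins moved apart. *Aco1*, which encodes the protein that doubles as cytosolic aconitase, fell by 1.06 ± 0.06 with LPS and by 0.50 ± 0.06 with IFN-β on the log2 scale (edgeR adjusted p = 6.22e-08 and 5.47e-05). *Ireb2*, the partner gene, rose by 0.45 ± 0.09 and 0.28 ± 0.09 (edgeR adjusted p = 0.00126 and 0.0267), but its log2 fold changes were -0.14 and -0.02 with scaling by library size only. The IFN-β value for *Ireb2* also did not pass with upper-quartile scaling (0.21, edgeR adjusted p = 0.0724), without IFN-β replicate A or without any 1 of the 3 unstimulated libraries (edgeR adjusted p = 0.06 to 0.113). With *Fbxl5*, 2 of the 3 listed genes rose and 1 fell with LPS (median 0.29), and 1 rose and 1 fell with IFN-β (median 0.09) [0 and 2 with either stimulus, and 1 and 1 with LPS and 0 and 1 with IFN-β under upper-quartile scaling].

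Of 14 tested genes for heme breakdown, transport and control, 5 rose and 6 fell with LPS (median 0.05), and 3 rose and 3 fell with IFN-β (median 0.13) [3 and 8 with LPS, 1 and 6 with IFN-β]. With the replicate letter as a block 6 rose and 4 fell with IFN-β. *Spic*, a transcription factor of iron-recycling macrophages, rose with LPS by 2.66 ± 0.36 on the log2 scale (edgeR adjusted p = 5.72e-05) and had a log2 fold change of 0.24 ± 0.41 with IFN-β (edgeR adjusted p = 0.669), or -0.08 with scaling by library size only. *Flvcr2*, a transporter related to a heme exporter, fell under both, with log2 fold changes of -1.65 ± 0.43 and -2.40 ± 0.45 (edgeR adjusted p = 0.00548 and 0.00143), from 28 to 65 counts to 11 or fewer. *Hmox2*, the constitutive heme oxygenase gene, rose by 0.82 and 0.99 (edgeR adjusted p = 0.00011 and 8.48e-05). The LPS value depends on the scaling. By library size only, LPS replicate C (3316 of 38727089 counts) lay below unstimulated replicate A (2987 of 33425803). Among the regulators of *Hmox1*, the repressor gene *Bach1* fell by 0.59 with LPS (edgeR adjusted p = 0.000142) and had a log2 fold change of 0.14 with IFN-β (edgeR adjusted p = 0.211, and 0.0405 with the replicate letter as a block), which turned to -0.16 with scaling by library size only. *Nfe2l2*, which encodes the activator NRF2, rose by 0.47 and 0.29 (edgeR adjusted p = 0.000228 and 0.00979). With scaling by library size only the *Nfe2l2* values were -0.12 and -0.02, and without unstimulated replicate B the IFN-β value did not pass (edgeR adjusted p = 0.0508).

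Of 8 tested heme synthesis genes, 1 rose and 4 fell with LPS (median -0.21), and 0 rose and 4 fell with IFN-β (median -0.19) [0 and 7 with LPS, and also with IFN-β]. Also 0 of them rose with IFN-β at an unadjusted p under 0.05 or with DESeq2. *Alad*, an enzyme of the early pathway, fell by 1.44 ± 0.21 with LPS and by 1.11 ± 0.20 with IFN-β on the log2 scale (edgeR adjusted p = 0.000111 and 0.0012). Of 14 tested genes for mitochondrial iron and iron-sulfur clusters, 3 rose and 8 fell with LPS (median -0.61), and 3 rose and 7 fell with IFN-β (median -0.26) [2 and 11 with LPS, 1 and 10 with IFN-β]. The importer *Slc25a37*, mitoferrin 1, rose by 1.81 and 1.03 (edgeR adjusted p = 1.08e-08 and 2.67e-06). *Glrx5*, a glutaredoxin of cluster assembly, fell by 1.41 and 0.95 (edgeR adjusted p = 8.33e-07 and 4.94e-05).

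**Figure D5:**
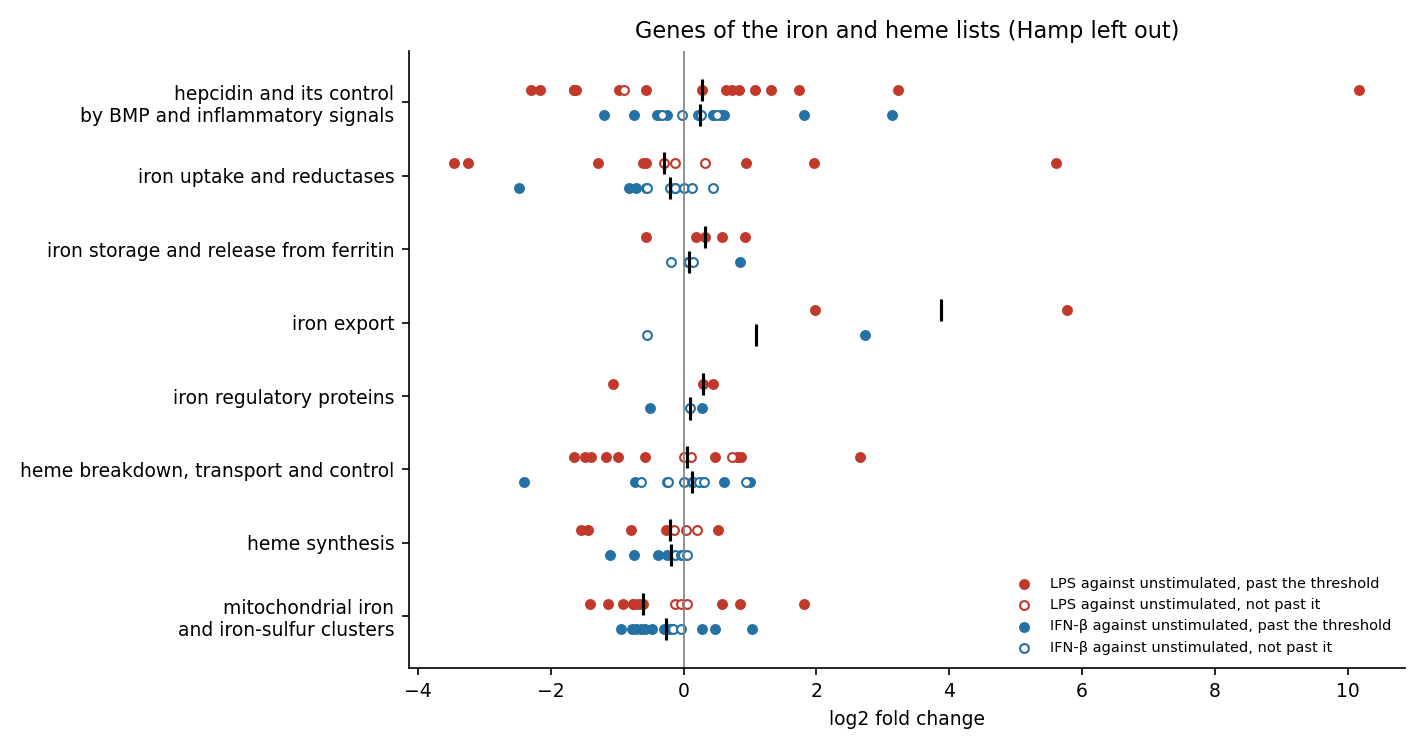
Log2 fold changes (x axis) of the tested genes of 8 iron and heme lists (y axis), Hamp left out, under LPS (red) and IFN-β (blue), with filled points for genes past the threshold, open points for the others and black marks for the list medians. The point at 10.18 is Il6 under LPS, and the medians of both stimuli lie below 0 for uptake, heme synthesis and mitochondrial iron.

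Exons of *Cp*, *Hmox2*, *Slc25a37* and *Stat3* also overlap a gene on the opposite strand. Last, the genes whose pattern over the 9 libraries was most like that of *Hamp* were sought among 12810 genes with a mean of at least 1 CPM, by Pearson's r of log2(CPM + 0.5). They were *Arhgap6* (r = 0.999), *Wdr59* (0.998), *Eif3e* (0.997), *Ctnnd1* (0.996) and *Zhx2* (0.995). The libraries form 3 groups, and the values of *Hamp* under the pseudocount separate chiefly LPS from the rest, so these correlations describe that split.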

How the data were processed

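RNA was measured in 9 libraries of DCs, prepared with removal of ribosomal RNA and sequenced as paired-end reads. The authors trimmed and mapped the reads to the mouse genome (GRCm38, mm10) and deposited raw counts per gene, made by STAR's gene counting on GENCODE M20, without normalization or a filter. The submitters' processing notes name Trim Galore 0.6.0 and STAR 2.7.8a, and the paper's methods name another STAR release. The strand setting is not given in the sources used here. Annotation came from GENCODE M21, which held 55230 of the 55471 identifiers, and 7 of the 10 genes had RefSeq promoter windows.

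Counts were tested as in the study's methods, with edgeR 4.0.16 (limma 3.58.1, R 4.3.3): TMM factors (0.783 to 1.26), filterByExpr, quasi-likelihood F-tests with 1 term per condition over 9 libraries, and Benjamini-Hochberg adjustment over 16260 genes with a threshold of 0.05. The SE of a log2 fold change is its size divided by the square root of F. Ratios were compared with exact permutation tests (scipy 1.17.1). The 10 genes, the 8 pathway lists and the 7 marker lists were chosen with earlier results of these data known. Named genes were, per list, the 2 with the largest called change under each stimulus, plus a fixed set of regulators, all genes with symbols in Fth or Ftl and the 5 genes most like *Hamp*, and 1 gene so named is not reported here. On simulated counts of 15561 genes for LPS against unstimulated, the test called 88 of 94 genes changed 4-fold (93.6%), 67 of 95 changed 2-fold (70.5%) and 6 unchanged genes. The simulation changed 200 genes in balanced directions and held no effect shared by a letter, whereas 68.2% of genes were called under LPS in the data. Its rates therefore check the code and do not give the recovery or false calls in these data.

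Libraries of 1 group differed by more than sampling noise in all 9 pairs. After group means were removed, the 9 pairs of libraries with the same letter correlated across genes (0.134 to 0.546, median 0.461). The letters in the labels were therefore taken as pairing, but only in the fit with the replicate block. The main edgeR tests and the permutation tests left the letters out, so their calls ignore this pairing. What the letters stand for is not given. The alternatives were DESeq2 1.42.0, upper-quartile factors, scaling by library size only, no filter, at least 10 counts in every library, the 2 compared groups alone, the letter as a replicate block and leaving out each library. For the ratios, exon length and within-letter differences were also used, neither of which can change the mean difference.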

Additional observations from a re-analysis of the deposited data

How the results depend on the processing

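The number of the 8 tested genes called under IFN-β, 1 in the report, changed with most settings: 2 with DESeq2, 2 with upper-quartile factors, 2 with the 2 compared groups alone, 4 without a filter on low counts, 5 with scaling by library size only, 4 with the replicate block and 1 to 3 when a library was left out. Under LPS it stayed at 7 in every leave-one-out fit, and for the difference of responses it ran from 4 to 7. With a library left out, the counts over the 8 lists ran from 59 to 62 (LPS), 32 to 43 (IFN-β) and 40 to 47 (difference). The cause of these shifts was not tested.

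With scaling by library size only, the log2 fold change of *Hamp* under LPS was 3.45. Among values past the threshold in the report or under that scaling, directions turned for *Slc11a2* under IFN-β (-0.19), *Ireb2* (-0.14 and -0.0237 under LPS and IFN-β), *Ncoa4* under LPS (-0.0119) and *Nfe2l2* (-0.12 and -0.0213). Values that passed in neither fit also turned under IFN-β for *Fth1* (-0.17), *Bach1* (-0.16) and *Spic* (-0.08). Leaving out a library moved the *Hamp* value between 3.87 and 4.19 under LPS, -2.01 and -1.34 under IFN-β, and -6.05 and -5.38 for the difference. The log2 differences of the ratio of *Fth1* to *Ftl1* ran from 1.38 to 1.57 with LPS and 0.28 to 0.36 with IFN-β, and those of *Slc40a1* to *Tfrc* from 3.10 to 3.45 and 0.04 to 0.39. Exon length and within-letter (paired) means cannot move these differences, because a fixed length cancels and every letter is in every group, so they are no check.

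Among the gene values that the report gives, the replicate block changed no call beyond those stated there, and it moved no other list's count of calls under a stimulus by over 1.5 times. Fits that leave out a library assume that the 2 left in its group vary like the other groups. With 12 or fewer counts in a library, *Hamp* outside the LPS group, *Hamp2* and *Steap4* were limited by depth.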
